A study of Mus musculus with 10 samples.

Results

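The genes described here are 10 rows of a CT26 tumor RNA table of 36009 genes, chosen by name: 6 eosinophil-type ribonucleases (Rnase2a, Rnase2b, Ear1, Ear2, Ear6 and Ear10), 2 eosinophil granule proteins (Prg2 and Epx) and 2 receptors that eosinophils carry (Ccr3 and Il5ra). All 10 names were found, 1 row each. The list was drawn up with earlier results of the same tumors known, among them that Rnase2a was one of the genes lowest in responders relative to non-responders. The values of the 10 genes in the 2 groups are therefore given as a description. The fit over all genes includes those of the 10 that passed the filter on low counts, and their calls are counted but support nothing.

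CT26 is a mouse colorectal carcinoma line, grown here under the skin of wild-type (WT) female BALB/c mice. Each library is polyA RNA from the part of a tumor removed at surgery, before a hydrogel carrying poly(I:C), a synthetic double-stranded RNA, was laid on the tumor left behind, so all 10 tumors were untreated at sampling. The 6 responders later regressed completely and the 4 non-responders grew without delay, so that the comparison asks which features of the tumor microenvironment (TME) preceded response. The labels give no age for single mice and name no sequencing batch, and p-values measure only the spread between these tumors. Epithelial genes were near 0 although the line is labeled as a carcinoma: the CPM (counts scaled to a common library size) of Krt8, Krt18 and Epcam together was 0.235 to 0.594 in responders and 0.477 to 0.916 in non-responders.

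Eosinophil-associated RNases belong to the RNase A superfamily, secreted enzymes that cut RNA. In rodents the eosinophil branch has been multiplied by gene duplication, so that several near copies lie side by side. In eosinophils the RNases are stored in granules together with major basic protein, encoded by Prg2, and eosinophil peroxidase, encoded by Epx. Granule proteins are made mostly while the cell matures in bone marrow. CCR3 receives the eotaxins, which draw eosinophils into tissue, and the IL-5 receptor, whose alpha chain is encoded by Il5ra, carries the signal that keeps them alive. RNase and Siglecf RNA is also known from some macrophages and monocytes, so no gene of the RNase branch marks eosinophils alone.

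All 6 RNase genes lie on chromosome 14 of the GRCm38 assembly. Rnase2b (chr14:51162260-51163018, plus strand), Rnase2a (chr14:51255262-51256112, minus strand) and Ear6 (chr14:51853699-51854643, plus strand) form one group. Ear1 (chr14:43818765-43875517, minus strand), Ear10 (chr14:43922720-43923559, minus strand) and Ear2 (chr14:44102654-44103534, plus strand) form the other. Their coding sequences are 465 to 468 bases long. Ear2 and Ear10 are 97.0% identical over the aligned coding bases and Ear1 and Ear2 95.1%, whereas Rnase2a shares 83.7% with its nearest member, Rnase2b, and 79.7% with Ear2.

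The stretch that follows, coding bases 73 to 192 of each gene, lies within 1 exon and is the 120-base part in which Rnase2a and Rnase2b differ most. It is shown because the values of these genes depend on telling the copies apart. Capitals mark bases that differ from Rnase2a, 24 in Rnase2b, 36 in Ear2 and 42 in Ear1. The sequences are those of the GENCODE M21 transcripts, 5′ to 3′ on the coding strand, at chr14:51255715-51255834 (Rnase2a), chr14:51162536-51162655 (Rnase2b), chr14:44102959-44103078 (Ear2) and chr14:43819218-43819337 (Ear1).
Rnase2a: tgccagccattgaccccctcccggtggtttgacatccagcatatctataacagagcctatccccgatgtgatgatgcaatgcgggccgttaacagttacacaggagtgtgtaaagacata
Rnase2b: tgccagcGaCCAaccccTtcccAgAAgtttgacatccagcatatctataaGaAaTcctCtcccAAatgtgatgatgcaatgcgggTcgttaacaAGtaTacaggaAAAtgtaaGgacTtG
Ear2: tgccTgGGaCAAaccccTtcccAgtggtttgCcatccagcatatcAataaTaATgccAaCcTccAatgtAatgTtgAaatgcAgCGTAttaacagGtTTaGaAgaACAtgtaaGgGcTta
Ear1: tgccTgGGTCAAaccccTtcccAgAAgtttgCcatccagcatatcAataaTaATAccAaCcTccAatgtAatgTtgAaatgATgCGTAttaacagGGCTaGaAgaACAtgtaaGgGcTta

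How well reads can be assigned differs between the genes. The authors used a pseudoaligner, which places reads by short words of sequence. Of the 31-base words in the Rnase2a transcript, 93.6% occur in no other gene among 141767 GENCODE transcripts, searched on both strands. The share is 92.6% for Rnase2b and 91.5% for Ear6, but 50.5% for Ear10, 39.5% for Ear2 and 26.4% for Ear1. A stretch of 150 bases, the length of a single read, held at least 1 such word at 100% of the positions in Rnase2a and at 93.7% in Ear2, 89.0% in Ear10 and 83.3% in Ear1. Prg2 and Epx share no word with another gene. The deposited estimates were whole numbers (within 0.001) for Rnase2a in 10 of 10 tumors and for Ear2 in 9 of 10. The exception was responder 5, in which 78.9 counts stood at Ear2, 2.03 at Ear10 and 2.04 at the pseudogene Ear-ps2. The estimates of Ear2, Ear10 and Ear-ps2 in that tumor are therefore uncertain. Whole numbers in the other tumors do not show that reads of shared words came from Ear2.

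**Figure D1:**
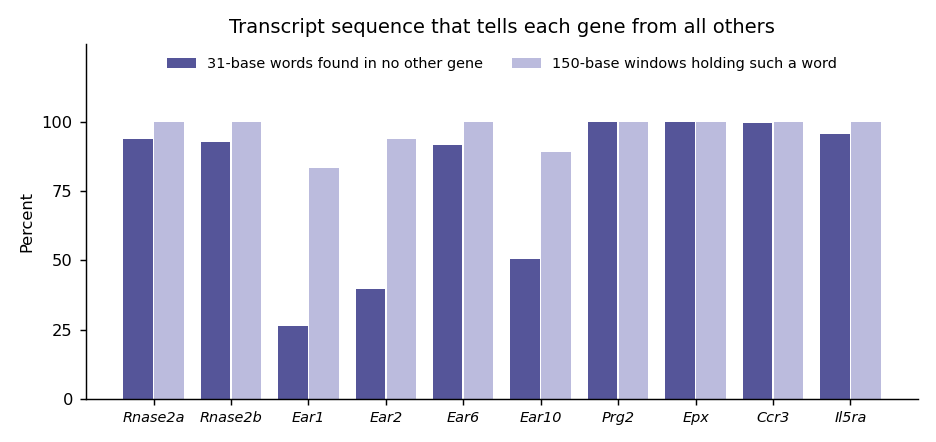
Percent of the 31-base words of each gene's transcripts that occur in no other gene (dark bars) and percent of 150-base windows along its longest transcript that hold at least 1 such word (light bars). Rnase2a stands at 93.6% and 100%, Ear2 at 39.5% and 93.7%, and Ear1 is lowest at 26.4% and 83.3%.

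Most of the 10 genes were scarcely detected. Total estimated counts per tumor were 23374649 to 38042544, and 3 counts, about the highest expected count that an observed 0 allows, correspond to 0.0783 to 0.130 CPM. Of the 10 genes, 4 passed the filter on low counts (Rnase2a, Ear2, Ccr3 and Il5ra) and the other 6 averaged under 3 counts. These limits cover counting error only.

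Ear1 was at 0 counts in every tumor. Rnase2b had 1 count, in non-responder 4, and Ear10 had 2.03 counts, in responder 5. Ear6 had 5 counts in all, with 2 in responder 2 and 1 each in responder 3, responder 6 and non-responder 4. None of these 4 RNases passed the limit of 3 counts in any tumor.

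Epx, the peroxidase (chr11:87864000-87875536), had 3 counts in the whole series, 2 in non-responder 4 and 1 in responder 6, and was at 0 in the other 8 tumors. Prg2, the major basic protein (chr2:84980461-84983632), had 2, 2, 0, 0, 2 and 3 counts in responders 1 to 6, while non-responders 1 to 4 held 2, 1, 1 and 6. Non-responder 4 was the only tumor above 3 counts of Prg2, at 0.181 CPM. A further granule gene, Prg3, had 6 counts over all tumors and 0 in non-responder 4. The granule genes that define eosinophils were therefore at or near the limit of detection throughout, and the genes that carry the values below are Rnase2a, Ear2 and the receptors.

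**Figure D2:**
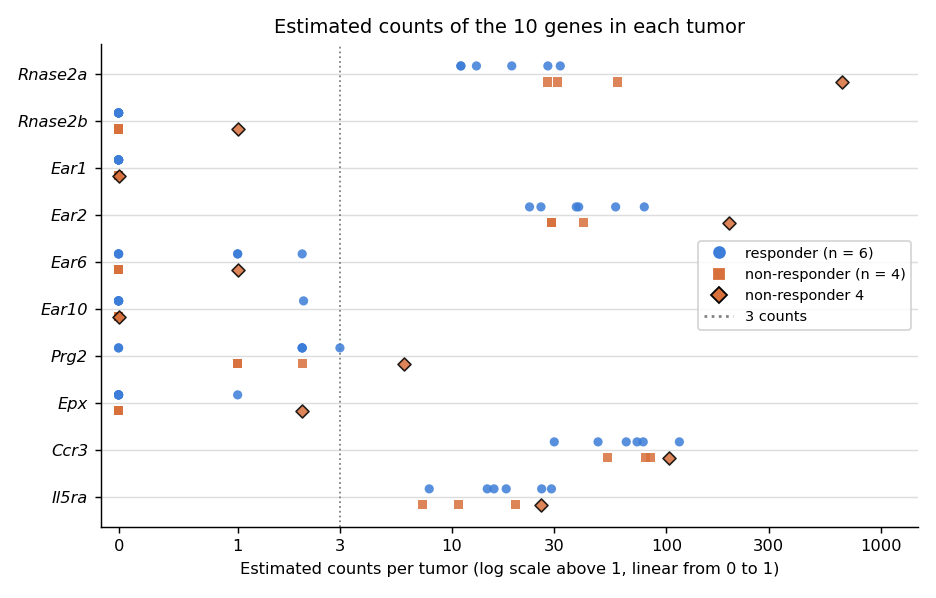
Estimated counts of each of the 10 genes in each tumor, on an axis that is logarithmic above 1 count; circles are responders, squares and the outlined diamond are non-responders, and the dotted line marks 3 counts. Rnase2a, Ear2, Ccr3 and Il5ra lie above 3 counts in every tumor, and the diamond (non-responder 4) lies far right of the rest for Rnase2a, at 658 counts, and Ear2, at 197.

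Rnase2a (ENSMUSG00000047222) was measured at 0.633, 0.874, 0.378, 0.429, 0.308 and 0.835 CPM in responders 1 to 6. Among non-responders the values were 2.38, 1.05, 1.34 and 19.9 CPM, in the order 1 to 4. The groups did not overlap, since the lowest non-responder lay above the highest responder, and 1 tumor lay far above all the others. Non-responder 4 was 8.33-fold above the next tumor and held 73.9% of all Rnase2a counts. The responder mean was 0.576 ± 0.242 CPM (SD, n = 6), and the non-responder mean was 6.15 ± 9.15 CPM (SD, n = 4). The fitted log2 fold change, responder over non-responder, was -3.42 (SE 0.79). Without non-responder 4 the fitted log2 fold change was -1.45 (SE 0.37), and the mean of the remaining non-responders was 1.59 ± 0.701 CPM (SD, n = 3), 2.76-fold that of responders. All 3 of them lay above every responder. The size of the difference thus rested largely on 1 tumor, and its sign was the same without it.

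Ear2 (ENSMUSG00000072596) was measured at 1.30, 1.19, 0.791, 0.858, 2.21 and 1.51 CPM in responders 1 to 6. Its level in non-responders 1 to 4 was 1.17, 1.53, 1.26 and 5.94 CPM. It was again highest in non-responder 4, 2.69-fold above the next tumor, which was responder 5. The remaining non-responders lay inside the range of responders. The fitted log2 fold change was -0.93 (SE 0.47) with all tumors and -0.004 (SE 0.32) without non-responder 4, where the means were 1.32 ± 0.188 CPM (SD, n = 3) and 1.31 ± 0.517 CPM (SD, n = 6). The Ear2 difference between the groups was that of a single tumor.

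Both RNases were highest in that tumor, by unequal amounts. There were 3.34 counts of Rnase2a for each count of Ear2 in non-responder 4, against 2.03, 0.683 and 1.07 in non-responders 1 to 3 and 0.139 to 0.737 in responders. Over the 10 tumors Pearson's r of their log2 CPM was 0.76, and over the 9 tumors without non-responder 4 it was 0.01. Per kilobase of transcript the order of the pair's medians changed between groups, with 0.769 for Rnase2a and 1.73 for Ear2 in responders, and 2.70 and 1.94 in non-responders (CPM per kilobase). The change was not seen in every tumor, since the count ratio of non-responder 2, 0.683, lay within the range of responders. In non-responder 4 the levels were 28.8 and 8.26 CPM per kilobase. Their neighbors Rnase2b and Ear1 were at 0.0397 and 0 CPM per kilobase there.

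Sums over copies do not depend on how reads were split among the genes summed. Rnase2a made up 99.9% of its sum with Rnase2b, and the sum gave a log2 fold change of -3.42 (SE 0.79). Ear2 made up 98.8% of its sum with Ear1, Ear6 and Ear10, which gave -0.91 (SE 0.47). All 6 RNases summed gave -2.18 (SE 0.62), at 1.20 to 2.57 CPM in responders and 2.58 to 25.9 CPM in non-responders. This sum did not pass (adjusted p = 0.0536 by edgeR), and the ranges nearly touched, at 2.573 and 2.576 CPM. Rnase2a made up 61.1% of it, and 73.9% of the Rnase2a counts were in non-responder 4. Of the 17 rows that the annotation assigns to this branch, pseudogenes included, Rnase2a and Ear2 held 99.1% of the counts, and 8 of the 11 rows outside the list had no count in any tumor.

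The promoters of the copies are alike while their estimated RNA levels are not. The windows shown here run from 250 bases before to 50 bases after the RefSeq start on GRCm38.p6, 5′ to 3′ on each gene's own strand, at chr14:51256063-51256362 (Rnase2a), chr14:44102404-44102703 (Ear2) and chr14:43819590-43819889 (Ear1). RefSeq windows were found for 9 of the 10 genes. They are shown because the Ear1 and Ear2 windows are 98.7% identical over 298 aligned columns, although Ear1 had 0 counts in all tumors and Ear2 had 23 to 197. Rnase2a and Ear2 windows are 81.1% identical. Capitals mark matches, on either strand, to the CCAAT box (CCAAT), C/EBP (TTGCNNAA or TTNNGCAA) or PU.1 (GAGGAA). The CCAAT box is a general promoter element, and C/EBP and PU.1 are factors known in myeloid cells.
Rnase2a: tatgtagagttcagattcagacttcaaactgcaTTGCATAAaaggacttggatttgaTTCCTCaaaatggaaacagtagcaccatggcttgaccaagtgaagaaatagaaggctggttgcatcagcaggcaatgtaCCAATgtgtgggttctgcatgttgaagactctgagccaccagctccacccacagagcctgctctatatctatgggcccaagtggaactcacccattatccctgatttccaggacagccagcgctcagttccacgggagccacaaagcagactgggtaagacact
Ear2: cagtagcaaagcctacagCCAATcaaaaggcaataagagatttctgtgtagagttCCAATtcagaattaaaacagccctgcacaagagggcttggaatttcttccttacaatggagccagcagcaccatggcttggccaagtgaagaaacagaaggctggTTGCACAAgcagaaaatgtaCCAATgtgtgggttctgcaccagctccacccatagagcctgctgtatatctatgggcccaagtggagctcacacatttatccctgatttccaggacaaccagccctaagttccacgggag
Ear1: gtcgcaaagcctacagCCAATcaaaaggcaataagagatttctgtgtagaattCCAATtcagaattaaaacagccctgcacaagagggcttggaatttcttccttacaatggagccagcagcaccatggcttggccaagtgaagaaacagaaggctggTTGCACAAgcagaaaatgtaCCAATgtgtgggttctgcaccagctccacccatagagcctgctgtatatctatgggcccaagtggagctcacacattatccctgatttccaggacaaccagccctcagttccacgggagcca

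A C/EBP match stood in the windows of Rnase2a, Rnase2b, Ear1, Ear2 and Ear10, 1 in each, and in 10.8% of the 32851 promoter windows in the table. The CCAAT box was found 3 times each in Ear1, Ear2 and Ear10 and once each in Rnase2a, Rnase2b, Ear6, Ccr3 and Il5ra, and in 37.4% of all windows. The PU.1 letters stood once each in Rnase2a, Ccr3 and Il5ra and in 28.3% of all windows. The GATA letters (AGATAA or TGATAA) stood in Ccr3 and Il5ra, once each, in none of the RNase windows, and in 18.6% of all windows. These are matches of letters only. The same C/EBP and CCAAT matches occur in Ear2 and in the undetected Ear1. Whether such matches bear on the RNA levels was not tested.

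For the receptors, non-responder 4 did not stand apart. Ccr3 (ENSMUSG00000035448, chr9:124021972-124031689) was measured at 2.60, 3.59, 1.03, 1.58, 1.82 and 1.91 CPM in responders 1 to 6. Its level in non-responders 1 to 4 was 2.14, 2.99, 3.64 and 3.11 CPM. Non-responder 3 and responder 2 were highest, non-responder 4 came next, and the groups overlapped. The log2 fold change was -0.51 (SE 0.29), and -0.48 (SE 0.34) without non-responder 4. Il5ra (ENSMUSG00000005364, chr6:106710357-106749037) was measured at 0.261, 0.910, 0.542, 0.481, 0.501 and 0.683 CPM in responders 1 to 6. Its level in non-responders 1 to 4 was 0.432, 0.734, 0.316 and 0.783 CPM. Its means, 0.563 ± 0.218 CPM (SD, n = 6) and 0.566 ± 0.228 CPM (SD, n = 4), lay within the spread of either group, with a log2 fold change of -0.03 (SE 0.34). The sign of that value turned when any of 5 tumors was left out. Il5ra estimates were fractional in all 10 tumors, and 95.7% of its 31-base words occur in no other gene.

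**Figure D3:**
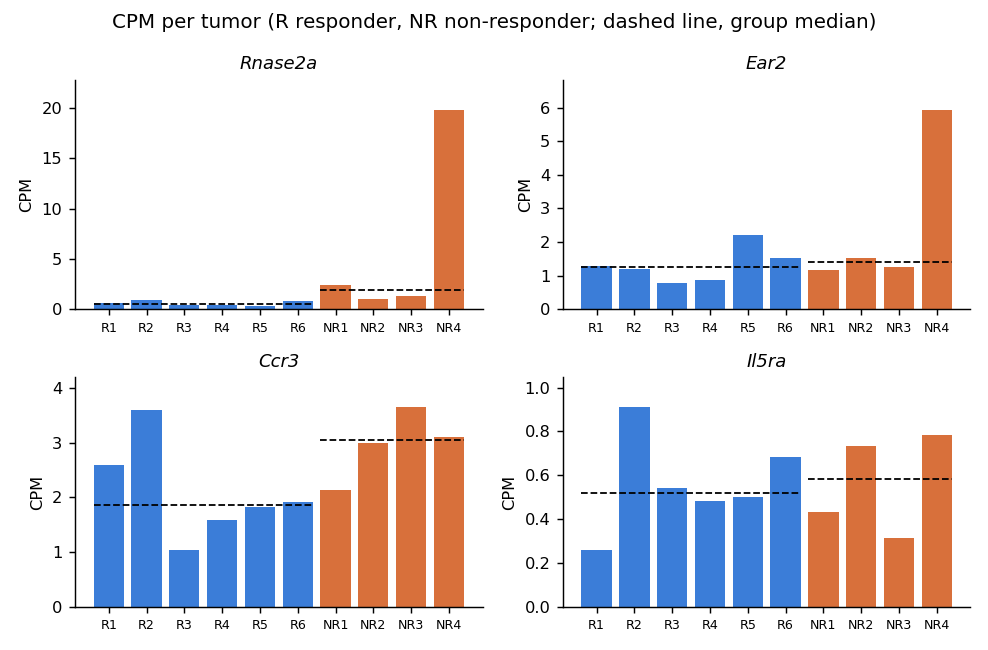
CPM of Rnase2a, Ear2, Ccr3 and Il5ra in each tumor, with responders (R1 to R6) and non-responders (NR1 to NR4) as bars and group medians as dashed lines. NR4 stands at 19.9 CPM for Rnase2a and 5.94 CPM for Ear2, far above the rest, but within the range of the other tumors for Ccr3 and Il5ra.

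By edgeR, 8.06% of the 16041 genes tested differed between the groups at an adjusted p under 0.05, 4.71% higher and 3.35% lower in responders. Of the 4 genes described here that entered the fit, 1 passed this threshold (Rnase2a, lower in responders), and it did not without non-responder 4 or without any one of 5 other tumors. Nor did it pass with the leukocyte gene Ptprc as a covariate. Ptprc itself did not overlap between the groups, at 326.2 to 499.3 CPM in responders and 181.1 to 307.4 CPM in non-responders. That fit therefore cannot separate leukocyte level from response. The median log2 fold change of the 4 was -0.72, against -0.01 over all genes tested. Values of the groups did not overlap for 1 of the 4 and for 10.4% of all genes tested, 4.54% with responders lower and 5.85% with responders higher. Since the list was made with this contrast known, these counts restate the choice of genes and nothing is read from them. In these whole-tumor libraries, fewer cells of a type cannot be told apart from less RNA per cell.

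Other genes of eosinophils and of their recruitment were tested as lists. Of 14 other eosinophil genes, 9 could be tested, of which 2 rose in responders and 0 fell, with a median log2 fold change of 0.29. The 2 were Csf2ra, the alpha chain of the GM-CSF receptor, and Ptger2, a prostaglandin E2 receptor. The mean of Csf2ra was 53.3 ± 9.98 CPM (SD, n = 6) for responders against 31.6 ± 3.04 CPM (SD, n = 4) for non-responders, 0.75 on the log2 scale with an SE of 0.13 (adjusted p = 0.0229 by edgeR). The mean of Ptger2 was 1.94 ± 0.575 CPM against 0.863 ± 0.131 CPM, 1.16 on the log2 scale with an SE of 0.25 (adjusted p = 0.0299 by edgeR). DESeq2 called 3 of the 9 higher, these and Csf2rb, and 0 lower, and by edgeR an unadjusted p under 0.05 was reached by 4 higher and 0 lower. Both are made by many myeloid cells. Without non-responder 4 the adjusted p by edgeR was 0.0604 for Csf2ra and 0.0766 for Ptger2, and 0 of all genes tested passed, with 4106 at an unadjusted p under 0.05. Without responder 3 or non-responder 1, too, neither of them passed.

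The list of other eosinophil genes was split: 5 of its 9 tested genes leaned toward responders and 4 toward non-responders. Siglecf and Alox15 were among the 4, as were Il1rl1 (-0.16 on the log2 scale) and Padi4 (-0.23). Siglecf encodes a sialic acid-binding lectin of mouse eosinophils and of some macrophages, and Alox15 a lipoxygenase of eosinophils and macrophages. Siglecf ranged from 0.206 to 1.19 CPM in the 6 responders (median 0.485) and was 0.808, 0.896, 0.780 and 1.63 CPM in the 4 non-responders, a difference of -0.80 on the log2 scale with an SE of 0.39 (adjusted p = 0.203 by edgeR). Only responder 2 stood above any non-responder. Alox15 ranged from 0.757 to 3.93 CPM among responders (median 1.95) and from 2.22 to 5.91 CPM among non-responders (median 2.79), and the difference was -0.80 on the log2 scale with an SE of 0.41 (adjusted p = 0.216 by edgeR). Neither passed the test. Both were highest in non-responder 4, and without that tumor their log2 fold changes were -0.47 (SE 0.42) and -0.39 (SE 0.41).

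Of 13 genes of eosinophil attraction and type 2 cytokines, 9 could be tested and 0 passed in either direction, with a median log2 fold change of 0.05. By edgeR, 3 of the 9 had an unadjusted p under 0.05, Ccl5 and Ccl8 with a higher and Ccl11 with a lower estimate in responders, and DESeq2 called these 3. Ccl11, which encodes eotaxin, ranged from 4.20 to 8.48 CPM in responders (median 6.92) and was 10.01, 6.83, 9.41 and 15.1 CPM in the 4 non-responders, so that 2 of the other 3 non-responders also lay above every responder. The difference was -0.66 on the log2 scale with an SE of 0.25 (adjusted p = 0.104 by edgeR and 0.0497 by DESeq2). Ccl24, a second eotaxin, lay between 20.4 and 46.1 CPM in responders and between 18.6 and 56.0 CPM in non-responders, a difference of -0.38 on the log2 scale with an SE of 0.28 (adjusted p = 0.387 by edgeR). Both eotaxins were highest in non-responder 4, at 15.1 and 56.0 CPM, and without that tumor the differences were -0.42 (SE 0.24) for Ccl11 and -0.12 (SE 0.27) for Ccl24 on the log2 scale. The alarmin Il33 had a responder mean of 66.8 ± 6.59 CPM (SD, n = 6) and a non-responder mean of 71.7 ± 39.2 CPM (SD, n = 4), -0.10 apart on the log2 scale with an SE of 0.27 (adjusted p = 0.846 by edgeR). Il5, the eosinophil growth factor, had 1 to 11 counts per tumor and was removed by the filter.

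**Figure D4:**
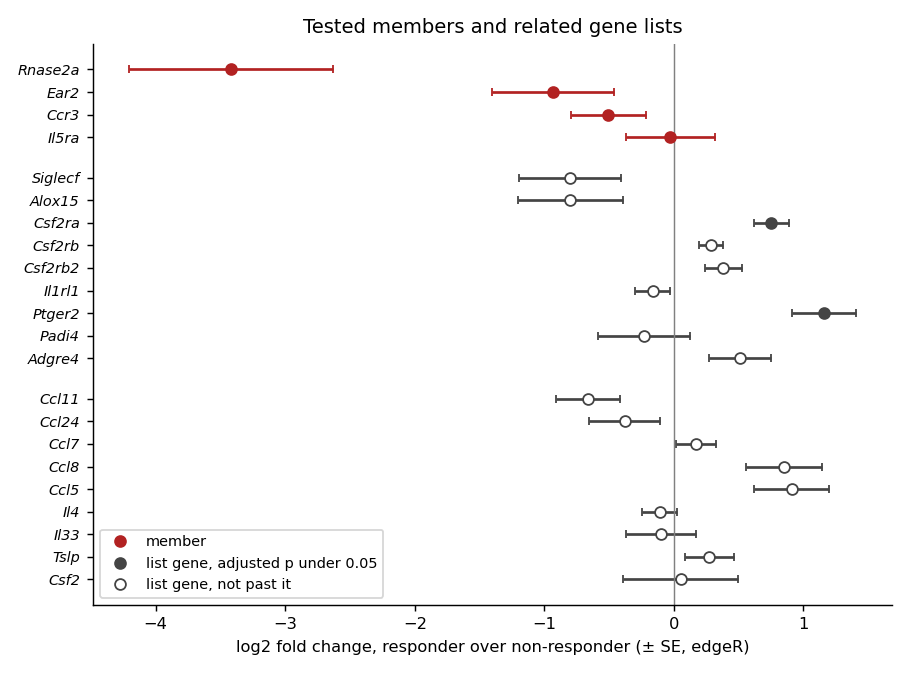
Log2 fold change, responder over non-responder, with its SE by edgeR for the 4 tested members (red) and the tested genes of the lists of other eosinophil genes and of eosinophil attraction and type 2 cytokines (gray; filled where the adjusted p was under 0.05). Rnase2a is far left at -3.42, Siglecf, Alox15 and Ccl11 lie between -0.80 and -0.66 without passing, and Csf2ra and Ptger2 are the filled points, at 0.75 and 1.16.

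Non-responder 4 was the tumor with the highest value for 11.2% of all genes with at least 3 counts in the series, a share that ran from 5.47% to 16.6% over the 10 tumors. It was the highest tumor for 4 of the 7 members with at least 3 counts (Rnase2a, Ear2, Prg2 and Epx), 3 of 14 other eosinophil genes (Siglecf, Alox15 and Gata1) and 4 of 13 attraction and type 2 genes (Ccl11, Ccl24, Il4 and Il13). Some of these leads were small, as for Gata1 at 0.603 CPM against 0.597 CPM in non-responder 2. Epx reached 3 counts only through non-responder 4, which held 2 of them against 1 in responder 6. The members were chosen with earlier results of these tumors known, so nothing is read from their share. The summed CPM of the other eosinophil genes was lowest in non-responder 4, at 697.9, of which Il1rl1 made up 501.1. The sum of the attraction and type 2 genes was 522.2 CPM there, rank 7 of 10 from the top. Non-responder 4 was singled out after its values were seen. It was highest for 0 of 10 mast cell and basophil genes and 0 of 9 neutrophil genes with at least 3 counts, and for 3 of 11 macrophage genes (Mrc1, Chil3 and Arg1). The level of Ptprc, the CD45 gene carried by leukocytes, was 233.2 CPM in non-responder 4, within the 181.1 to 307.4 CPM of the other non-responders, and the macrophage marker Adgre1 was at 102.7 CPM, within their 87.9 to 160.3 CPM.

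**Figure D5:**
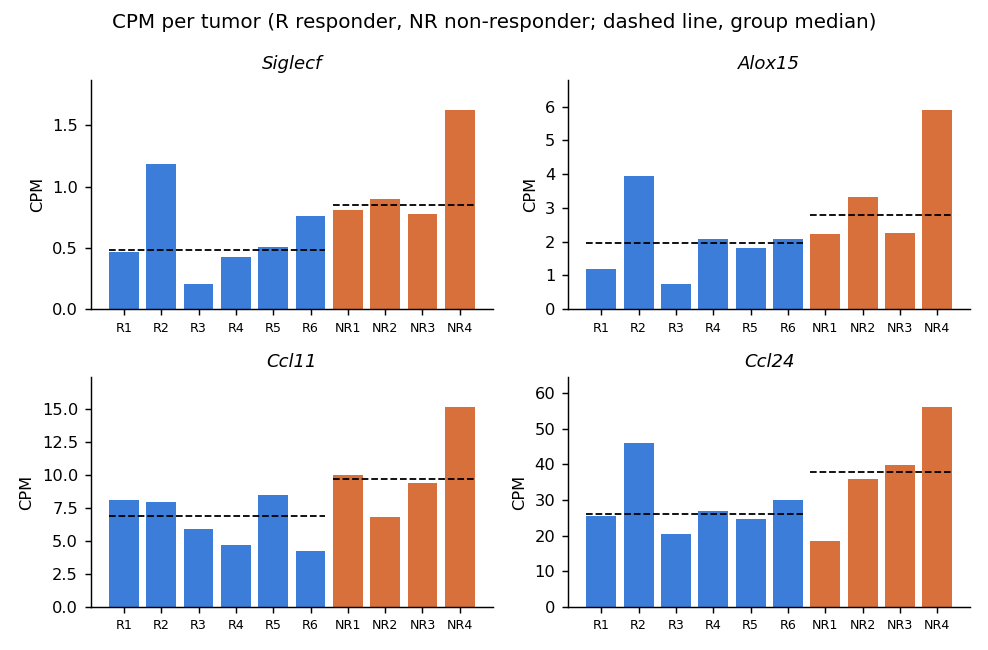
CPM of Siglecf, Alox15, Ccl11 and Ccl24 in each tumor (R1 to R6 responders, NR1 to NR4 non-responders, dashed lines group medians). NR4 is highest in all 4 panels, at 1.63, 5.91, 15.1 and 56.0 CPM, and R2 is the highest responder for Siglecf, Alox15 and Ccl24.

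The values of Ccr3 were set beside those of Siglecf, Alox15 and Ccl24 over the tumors. Pearson's r of log2 CPM was 0.83 with Siglecf, 0.73 with Alox15 and 0.75 with Ccl24 over 10 tumors, and 0.84, 0.73 and 0.77 over 9. For Rnase2a the values were 0.77, 0.72 and 0.58 over 10 tumors and 0.68, 0.49 and 0.15 over 9. For Ear2 they were 0.66, 0.66 and 0.60, and 0.43, 0.34 and 0.20. For Il5ra they were 0.46, 0.59 and 0.47, and 0.35, 0.51 and 0.35. With Ccl11, r over 10 tumors was 0.73 for Rnase2a, 0.67 for Ear2, 0.55 for Ccr3 and -0.05 for Il5ra, and over 9 tumors it was 0.44, 0.28, 0.51 and -0.39. With Il33, r over 10 tumors was -0.19, -0.43, 0.10 and -0.57 in the same order of genes. Over 9 tumors it was 0.286, -0.241, 0.227 and -0.505, so that the sign for Rnase2a turned. These are descriptions over tumors that share the group difference, with no test.

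The genes most like each member over the 10 tumors, among those averaging at least 1 CPM, were on none of the lists used here. For Rnase2a they were Trim45, Nsmce3 and Tmem97 (r = 0.94, 0.94 and 0.93), and for Ear2 they were Nts, Ciao1 and Mmadhc (r = 0.96, 0.94 and 0.92). All 6 of these were highest in non-responder 4, and most by little, as in Nsmce3 at 24.8 CPM against 20.0 to 23.3 CPM in the other tumors. Nts, which encodes neurotensin, was at 2.20 CPM against 0.957 to 1.26 CPM. For Ccr3 they included Fignl2 and Gm21994 (r = 0.92 and 0.90), and for Il5ra they were Mettl27, Dynlt2a2 and Ankrd39 (r = 0.92, 0.92 and 0.90). They are the extremes of a search over all genes tested in 10 tumors and are given as a description.

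Markers of other cells that hold granules or RNases were set beside these values. Of 10 mast cell and basophil genes, 9 could be tested, of which 2 rose in responders (Cma1 and Kit) and 0 fell, and the median log2 fold change was 0.89. DESeq2 called 4 higher, these with Cpa3 and Tpsb2, and 0 lower, and 7 were higher and 0 lower at an unadjusted p under 0.05 by edgeR. The summed CPM of the list was 66.0 to 193.9 in responders and 43.97 to 80.7 in non-responders, 59.2 in non-responder 4. Of 11 macrophage genes, 10 could be tested, of which 5 rose in responders and 0 fell (Adgre1, C1qa, C1qb, C1qc and Cd68), and the median log2 fold change was 0.45. Their sum was 2932 to 4350 CPM in responders and 2076 to 2767 CPM in non-responders, 2606 in non-responder 4. Of 10 neutrophil genes 5 could be tested and 0 passed by edgeR or by DESeq2 (1 at an unadjusted p under 0.05 by edgeR), with sums of 75.5 to 154.4 CPM and 58.7 to 126.0 CPM and the lowest in non-responder 4. Arg1, on the macrophage list, which encodes arginase, had a lower estimate in responders, -0.89 on the log2 scale with an SE of 0.39 (adjusted p = 0.151 by edgeR), and was highest in non-responder 4, at 25.3 CPM. Ptprc itself was higher in responders, with a mean of 380.5 ± 63.1 CPM (SD, n = 6) against 250.6 ± 55.6 CPM (SD, n = 4), 0.60 on the log2 scale with an SE of 0.15 (adjusted p = 0.0413 by edgeR). With Ptprc as a covariate 0 of all genes tested passed by edgeR, with 845 at an unadjusted p under 0.05. Ptprc did not overlap between the groups, so that fit cannot separate its level from response. The part of these cells in the value of Rnase2a was not tested. Without non-responder 4, none of the 7 genes that rose passed by edgeR.

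Other RNases of the superfamily were tested as a further list. Of 14 such genes 5 were at 0 in every tumor, 3 could be tested and 0 passed by edgeR or by DESeq2 (1, Rnase6, at an unadjusted p under 0.05 by edgeR), and their median log2 fold change was 0.09. Rnase4, the most abundant, lay between 34.8 and 43.5 CPM in responders and between 31.3 and 40.5 CPM in non-responders. Rnase6, known from monocytes and macrophages, lay between 5.52 and 8.36 CPM in responders and between 3.11 and 5.94 CPM in non-responders, with an estimate of 0.41 on the log2 scale and an SE of 0.18 (adjusted p = 0.165 by edgeR). The gene Ear14, deposited under the name Ear4, had 1 count, in non-responder 4.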

How the data were processed

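The deposited table holds expected counts (estimated counts, 35% of values fractional) of 36009 genes in 10 tumors. The authors reviewed reads with FastQC, estimated transcripts with Kallisto and summed them to genes with tximport on mm10 (GRCm38 in the submitters' processing notes). The annotation release, tximport scaling and strand setting are not given in the sources used here. The reference comes from another mouse strain than BALB/c.

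Counts were rounded and fitted in R 4.3.3 with edgeR 4.0.16: filterByExpr (minimum count 10, minimum total count 15; 16041 genes kept), TMM, the quasi-likelihood test, two-sided, with Benjamini-Hochberg adjustment over all genes tested and a threshold of 0.05. CPM uses TMM-scaled totals, and correlations use log2 CPM with a prior count of 2. The SE was derived from the fold change and its F statistic. The fit was tested on simulated data. Alternatives used DESeq2 1.42.0, its size factors, no filter, unrounded counts, Ptprc as a covariate, summed paralogs and each tumor left out. No library repeated another: over 45 pairs, chi-square per degree of freedom was at least 10.7. Response was read from the labels, and replicate numbers follow accession order. Transcripts and coordinates are from GENCODE M21 (GRCm38), which was also used, by gene ID, for the 9633 rows deposited without a name. Level per kilobase uses the median length of a gene's coding transcripts.

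Members and lists were chosen with earlier results of these data known. The named genes are all members, a fixed set (Siglecf, Prg3, Alox15, Ccl11, Ccl24, Il5, Il33 and Ptprc), up to 4 called genes per list by smallest p, and the 3 genes most like each tested member, of which 1 is not reported here. Other genes named were chosen after their values were seen.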

Additional observations from a re-analysis of the deposited data

Results flagged for a closer look

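Among 36 groups of values (18 genes, responders and non-responders apart), 5 held a tumor whose gap to its nearest neighbor took up more of the range of its group than Dixon's limit for its size, where chance alone would flag about 1.8 of 36 independent groups. These groups are not independent, since several flags are of 1 tumor and Rnase2a was chosen with its values known, so the count is a description. Of these, 3 were non-responder 4, for Rnase2a at 19.9 CPM (gap 0.929 of the range), Ear2 at 5.94 CPM (gap 0.925) and Siglecf at 1.63 CPM (gap 0.864). The other 2 were responder 5, for Adgre1 at 311.8 CPM (gap 0.632) and Ptprc at 499.3 CPM (gap 0.643). Responder 5 was also the responder with the highest Ear2, at 2.21 CPM, and the lowest Rnase2a, at 0.308 CPM.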

How the results depend on the processing

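With DESeq2 size factors, no filter or unrounded counts, the calls were 1 member (of 4 fitted, or of 9 with no filter), 9 genes of the lists and 931 to 1287 of all genes tested, against 1, 9 and 1293. The DESeq2 Wald test called 0, 15 and 2602, and gave no adjusted p for Rnase2a. With Ptprc as a covariate edgeR called 0, 0 and 0 (845 of all genes at an unadjusted p under 0.05), and Il33 turned to 0.016 on the log2 scale. Ptprc itself did not overlap between the groups, so this setting cannot separate its level from response. Leaving out 1 tumor gave 0 to 1 members, 0 to 14 list genes and 0 to 1897 of all genes. The count over all genes was 17 without responder 3, 16 without non-responder 1 and 0 without non-responder 4 (4106 at an unadjusted p under 0.05). No member passed without any one of responders 1, 2, 3 and 5 or non-responders 1 and 4. Over the alternatives, the log2 fold change of Rnase2a ran from -3.77 to -1.45, with no value taken from the DESeq2 Wald test. That of Ear2 ran from -1.29 to -0.004 and that of Ccr3 from -0.73 to -0.37. The sum of all 6 RNases, at -2.18, is left out of the Ear2 range. Leaving out 1 tumor moved Il5ra between -0.222 and 0.174, positive without responder 1 (0.111), responder 4 (0.016), responder 5 (0.005), non-responder 2 (0.115) or non-responder 4 (0.174), and moved Il33 between -0.318 and 0.292, positive without non-responder 3. The cause of these changes was not tested. For the 14 named list genes, 152 of 209 values stayed on their side of the threshold, 54 lost and 1 gained the call (Ccl11, DESeq2), and 2 turned sign. No paired analysis was possible because replicate numbers follow accession order and pair no tumors. Depth limits Rnase2b, Ear1, Ear6, Ear10, Prg2 and Epx, which averaged under 3 counts.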
